A study of Mus musculus with 98 samples.

Results

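Neutrophils carry their antimicrobial proteins in granules that are filled one after another while the cell matures in the bone marrow. Primary (azurophil) granules are made first, in promyelocytes, and hold myeloperoxidase and serine proteases. Secondary (specific) granules follow in myelocytes and metamyelocytes with lactoferrin, lipocalin and the cathelicidin, and tertiary (gelatinase) granules come last with matrix metalloproteinase 9. The messenger RNAs follow the same order, so a mature neutrophil of the blood usually holds little primary granule message, and secondary granule message in blood is commonly taken as a mark of younger neutrophils. The 10 genes described here were Mpo and Elane of the primary class, Camp, Ngp, Ltf, Lcn2, Mmp8 and Cd177 of the secondary class, Mmp9 of the tertiary class and Chil3, which neutrophils and macrophages both make and which was put in no class. They comprised every probe set that the platform's gene table gives to a single one of these symbols. They are 10 of the 12393 genes so named on the array, and had 11 of the 22690 probe sets on the array, with 2 for Mmp9 (1416298_at and 1448291_at) and 1 for each other gene. A further probe set that the table gives to both Chil4 and Chil3 could not be told apart and was not counted.

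RNA of mouse blood leukocytes (64 arrays) and of spleen (34 arrays) was hybridised to 1-colour Affymetrix arrays in 3 models, namely burn injury, infusion of lipopolysaccharide (LPS, a cell wall component of bacteria that triggers inflammation) and trauma-hemorrhage. Titles carry a code, c or x, which the labels leave unexplained and which is compared here as coded. In blood they also carry a letter, which the labels tie to the injury or infusion (E) or to sham treatment (A). The labels call the burn spleen samples leukocytes and the other spleen samples spleen, all spleen titles carry E, and those of LPS spleen also carry a version mark. Burn blood had 5 arrays coded c and 4 coded x under letter A, and 6 and 5 under letter E. In the same order LPS blood had 6, 5, 6 and 5, and trauma-hemorrhage blood had 5, 5, 6 and 6. Burn spleen had 5 arrays coded c and 6 coded x, LPS spleen had 6 of each, and trauma-hemorrhage spleen had 6 and 5. Strain, age, dose and time after injury are not given in the sources used here. The labels do not state whether the samples within a group are different animals. The p-values below therefore cover the scatter among these samples alone, and that scatter may be technical.

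The median intensity of an array lay between 76.2 and 145, and each of the 6 array sets had a lowest value of its own, from 9.68 to 32.5, at which its dimmest probe sets were held. Because the sets appear to have been scaled separately, levels of members were compared within a set only. Between sets only the x minus c differences were compared, and the unequal lowest values and medians could still affect these. As a rough check of the tissue labels, the mean log2 level of 5 platelet markers was 9.75 to 11.28 in blood and 7.36 to 7.89 in spleen, while that of 5 B cell markers was 7.34 to 9.82 in blood and 9.58 to 10.88 in spleen and overlapped. In burn blood, c arrays of letter E replicates 4 and 5 stood apart, with a mean log2 level of 7 mature neutrophil markers (S100a8, S100a9, Csf3r, Cxcr2, Fpr2, Trem1 and Itgam, none of them a member) of 10.90 and 11.07, where the 4 other arrays of their group had 8.65 to 9.23. Their 5 B cell markers were at 8.65 and 8.82, below the group's other arrays at 9.38 to 9.71. In bulk RNA, fewer cells of a type and less RNA per cell cannot be told apart.

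The promoters of 4 members are shown because they stand for the classes whose messages are compared below and because 3 of them, Ngp, Ltf and Camp, lie near each other on chromosome 9. They are the 250 bases upstream of the start site, 5′ to 3′ on the gene's strand, from RefSeq on GRCm38.p6, for Mpo at chr11:87793534-87793783 (plus strand), Ngp at chr9:110419558-110419807 (plus), Ltf at chr9:111019042-111019291 (plus) and Camp at chr9:109849457-109849706 (minus). Capitals mark matches to TTNNGNAA, a core recognised by C/EBP factors, or to GAGGAAG, recognised by PU.1, both of which act in the granule programme. Both strands were searched.
Mpo: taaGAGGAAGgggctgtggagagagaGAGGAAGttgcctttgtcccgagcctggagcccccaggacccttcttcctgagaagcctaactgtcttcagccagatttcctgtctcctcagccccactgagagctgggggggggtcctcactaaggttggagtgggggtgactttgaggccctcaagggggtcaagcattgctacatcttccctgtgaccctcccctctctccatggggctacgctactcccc
Ngp: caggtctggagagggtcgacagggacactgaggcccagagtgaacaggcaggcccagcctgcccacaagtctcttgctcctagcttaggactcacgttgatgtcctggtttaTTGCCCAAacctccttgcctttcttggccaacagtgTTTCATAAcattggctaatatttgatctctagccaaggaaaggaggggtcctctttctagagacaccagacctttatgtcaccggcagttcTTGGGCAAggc
Ltf: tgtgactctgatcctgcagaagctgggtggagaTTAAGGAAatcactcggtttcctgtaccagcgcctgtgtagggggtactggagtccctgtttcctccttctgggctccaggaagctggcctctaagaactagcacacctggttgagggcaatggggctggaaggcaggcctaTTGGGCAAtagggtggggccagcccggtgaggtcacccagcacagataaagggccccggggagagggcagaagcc
Camp: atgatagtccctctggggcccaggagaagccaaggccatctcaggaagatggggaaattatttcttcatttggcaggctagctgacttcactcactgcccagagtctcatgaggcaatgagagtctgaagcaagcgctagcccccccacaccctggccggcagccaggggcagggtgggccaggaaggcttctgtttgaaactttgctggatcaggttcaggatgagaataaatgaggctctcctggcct

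The RefSeq promoter table held 9 of the 10 members and 32851 promoters in all, and Mmp9 was not matched. TTNNGNAA occurred in 36.8% of all promoters and in 6 of the 9 members, 5 of them of the secondary class. Ngp had 3 matches, Ltf had 2, and both held the same 8 bases, TTGGGCAA. GAGGAAG occurred in 10.6% of all promoters and in 4 of the 9 members, which included both primary genes, Mpo with 2 matches and Elane with 1, as well as Lcn2 and Mmp8. Camp held neither in this window. The motifs were chosen with the results below known, and a match describes letters, not a bound site.

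Across the 3 blood sets the secondary class was higher in x arrays in most comparisons. Neither primary gene passed the threshold in any of them as fitted (Elane in trauma-hemorrhage blood did under some other settings). Mmp9 was higher in x on both of its probe sets in LPS, but on only a single probe set in burn. That same probe set was lower in x in trauma-hemorrhage, a call lost with no normalization or with median scaling. The other Mmp9 probe set did not pass in burn or trauma-hemorrhage blood. Values in the text are deposited intensities of single arrays, differences are x minus c in log2 intensity with their standard error (SE), and a gene is said to rise or fall where limma's adjusted p over all 15838 probe sets tested was under 0.05. All 11 probe sets passed the filter on low values in every comparison.

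Mpo, the peroxidase that makes hypochlorous acid, lay in a narrow band in blood. In burn blood its intensity was 114 to 152 in c arrays (median 128) and 128 to 148 in x arrays (median 137), in LPS blood 140 to 181 (median 167) and 141 to 194 (median 158), and in trauma-hemorrhage blood 130 to 178 (median 153) and 122 to 200 (median 145). The codes overlapped in all 3 sets. The differences were 0.06 ± 0.04 (adjusted p = 0.359), -0.00 ± 0.05 (adjusted p = 0.967) and -0.02 ± 0.07 (adjusted p = 0.795). The widest of their 95% intervals, that of trauma-hemorrhage, ran from -0.16 to 0.12. Elane, neutrophil elastase, was alike, with medians for c and x of 208 and 207 in burn, 242 and 228 in LPS, and 192 and 223 in trauma-hemorrhage blood. Averaged over letters, its largest blood difference was 0.15 ± 0.07 in trauma-hemorrhage (adjusted p = 0.0621, above the c mean of its letter in 11 of 11 x arrays). This passed in 4 of the 22 fits that left out 1 array, namely c of letter A replicate 1 or 2 or c of letter E replicate 1 or 2. It also passed with no normalization (0.18, adjusted p = 0.0255), median scaling (0.19, adjusted p = 0.0223), the run as a block (adjusted p = 0.0343) and in the second run alone (0.26, adjusted p = 0.0205). In blood, where array medians were 117 to 145, Mpo lay near the median of all probe sets and Elane, with medians of 192 to 242, above it. No detection calls are given for them, so a change of a low message would be hard to see there.

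**Figure D1:**
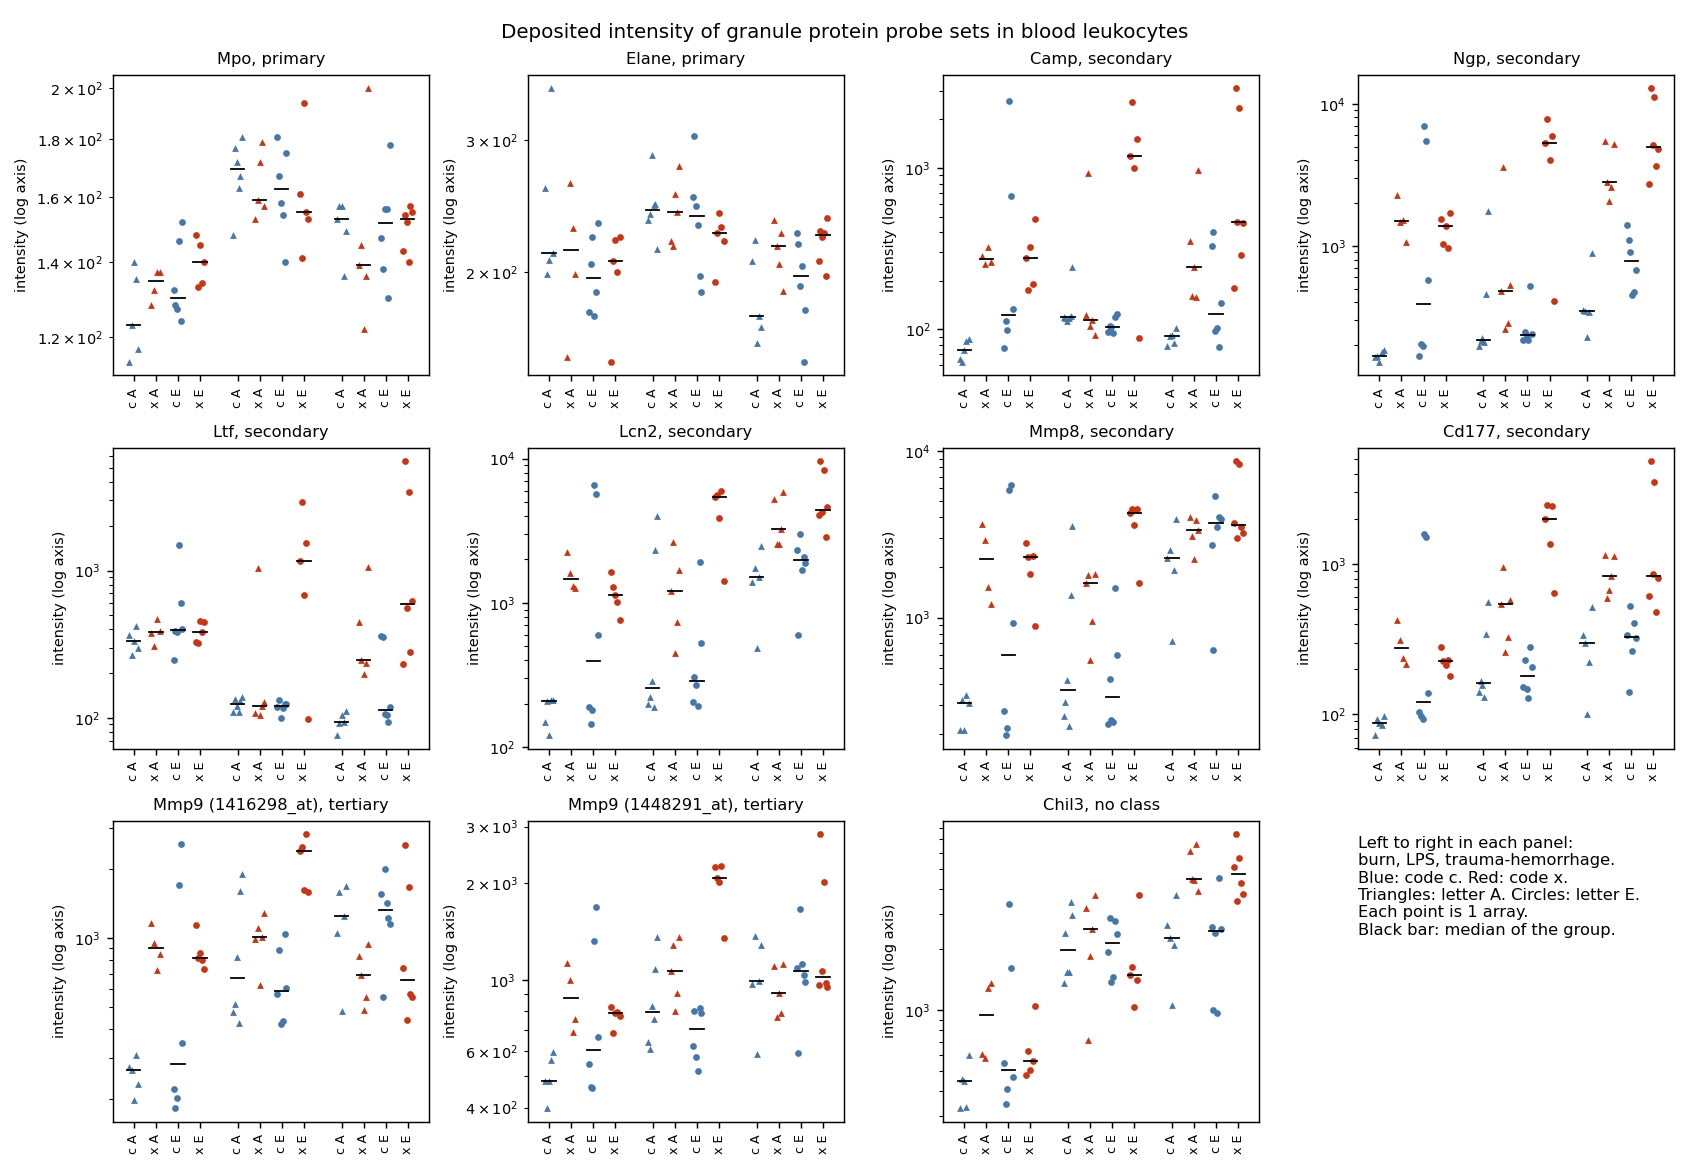
Deposited intensity (log axis) of the 11 granule protein probe sets in every blood array, one panel per probe set, with burn, LPS and trauma-hemorrhage from left to right in each; blue is code c, red is code x, triangles are letter A, circles are letter E and bars are group medians. Mpo stays between 114 and 200 in all 64 arrays, while Ngp runs from 153 to 12855.

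In burn blood (9 x and 11 c arrays) 4 of the 11 probe sets rose in x and 0 fell, where 18.2% of all probe sets tested were called (7.71% higher and 10.5% lower). Those that rose were the secondary members Mmp8, a collagenase, Ngp, a cathelicidin-like granule protein, and Lcn2, the lipocalin that binds bacterial siderophores, and 1 of the 2 Mmp9 probe sets. Ngp read 165, 167, 153, 178 and 186 in c arrays of letter A and 168, 203, 198, 6919, 5478 and 578 in c arrays of letter E. It read 2283, 1469, 1522 and 1069 in x arrays of letter A and 1557, 1030, 1377, 970 and 1689 in x arrays of letter E. Every x array was thus above all c arrays except replicates 4 and 5 of letter E, which were higher than any x array. The difference was 1.87 ± 0.55 for Ngp (adjusted p = 0.0219, 3.65-fold, above the c mean of its letter in 9 of 9 x arrays), 1.93 ± 0.55 for Mmp8 (adjusted p = 0.0164) and 1.79 ± 0.57 for Lcn2 (adjusted p = 0.0323).

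Lcn2 had a c median of 209 and an x range of 765 to 2250, and the same pair of c arrays, at 6558 and 5699, were its highest. The Lcn2 call was lost (adjusted p from 0.0513 to 0.0591) when any 1 of 7 arrays was left out, namely c of letter A replicate 3, c of letter E replicates 1, 2 and 3, x of letter A replicates 1 and 2, or x of letter E replicate 1. Mmp8 showed the same shape, at 198 to 923 in 9 c arrays, 5845 and 6224 in the pair and 887 to 3626 in x arrays. Camp, the cathelicidin, read 62.9 to 133 in 9 c arrays, 2612 and 667 in the pair, and 176 to 483 in x arrays, so x lay above 9 of 11 c arrays. Its difference was 0.92 ± 0.44 and did not pass (adjusted p = 0.167). Cd177, a surface and granule protein of neutrophils, had medians of 97 in c and 231 in x (0.68 ± 0.42, adjusted p = 0.307).

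Ltf, the iron-binding lactoferrin, was the secondary member that did not separate the codes at all in burn blood. It read 246 to 605 in 10 c arrays, 1499 in replicate 4 of letter E, and 307 to 468 in x arrays, with a difference of -0.07 ± 0.20 (adjusted p = 0.866). Mmp9, gelatinase B, read 182 to 348 on 1416298_at in 9 c arrays, 1694 and 2555 in the pair, and 725 to 1163 in x arrays, a rise of 1.28 ± 0.35 (adjusted p = 0.014). On 1448291_at it read 399 to 663 in those 9, 1318 and 1684 in the pair, and 683 to 1128 in x arrays, with 0.38 ± 0.16 (adjusted p = 0.122). Chil3, a chitinase-like protein without enzyme activity, had medians of 459 in c and 607 in x (0.36 ± 0.32, adjusted p = 0.509).

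Without the 2 c arrays that stood apart, 8 of 11 probe sets rose in burn blood and 0 fell, namely the secondary members other than Ltf, both Mmp9 probe sets and Chil3. Differences were then 2.61 for Ngp, 2.62 for Mmp8, 2.55 for Lcn2, 1.47 for Camp and 1.25 for Cd177, while Ltf stayed at 0.13 (adjusted p = 0.419). The pair was picked after the data were seen and held the highest c values of Ngp, Mmp8, Lcn2, Camp and Mmp9. Leaving it out raises x minus c for these by construction, so the fits without it describe the remaining arrays and test nothing. The share of all probe sets called in those fits is not given. The pair belongs to letter E, and with it the codes looked unlike between letters. Among letter A arrays 5 probe sets rose, where 14.5% of all were called, with Ngp at 3.02 ± 0.82 and Lcn2 at 2.99 ± 0.84. Among letter E arrays 0 of 11 passed, where 5.91% of all were called and 2972 probe sets had an unadjusted p under 0.05, 0 of them members. There Ngp differed by 0.71 ± 0.74. Without the pair 6 members rose in letter E, with Ngp at 2.20, and the difference between the letters was past the threshold for 0 members with the pair or without it. For Ngp with the pair it was -2.31 ± 1.11 (adjusted p = 0.419), against 0.0126% of all probe sets called. The count for letter A also moved when 1 array was left out: to 1, 2 and 3 without x of letter A replicates 1, 2 and 4, to 3 without c of letter A replicate 3, and to 8 without c of letter E replicate 4. Each blood set and LPS spleen had 2 runs of consecutive title numbers, and the labels do not say what a run is. In burn blood each run holds 1 of the pair, and the first run alone gave 2 calls and the second 0, with Ngp at 2.03 and 1.52.

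In LPS blood (10 x and 12 c arrays) all 6 secondary members and both Mmp9 probe sets rose, 8 of 11 in all with 0 lower, where 26.4% of all probe sets were called (13.4% higher and 13% lower). Ngp read 196 to 1759 in c arrays with a median of 229. Its x values of letter A were 481, 3568, 258, 286 and 527, and those of letter E were 5259, 7764, 4043, 5945 and 409. The x arrays thus fell into a high set of 5 and a low set of 5, and the high set was formed by 4 of 5 arrays of letter E and 1 of letter A. The difference averaged over letters was 2.23 ± 0.50 (adjusted p = 0.00202, 4.68-fold, above the c mean in 8 of 10).

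Camp and Ltf split the x arrays in the same place. Camp read 122, 105, 114 and 91.9 in 4 x arrays of letter A and 928 in replicate 2. In letter E it read 1186, 2552, 1002 and 1508 in 4 arrays and 87.7 in replicate 5, against 94.5 to 242 in c arrays. Outside the 5 high arrays, x and c overlapped for Camp, and Ltf repeated this with 1045 in that letter A array, 98.5 in that letter E array and 99.7 to 139 in c. The rises were 1.62 ± 0.42 for Camp (adjusted p = 0.0059) and 1.63 ± 0.41 for Ltf (adjusted p = 0.00506). Chil3 was opposite in the same 2 arrays: 711 in replicate 2 of letter A, where the others read 1855 to 3704, and 3719 in replicate 5 of letter E, where the others read 1034 to 1638. Over both letters Chil3 differed by -0.16 ± 0.23 (adjusted p = 0.649).

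**Figure D2:**
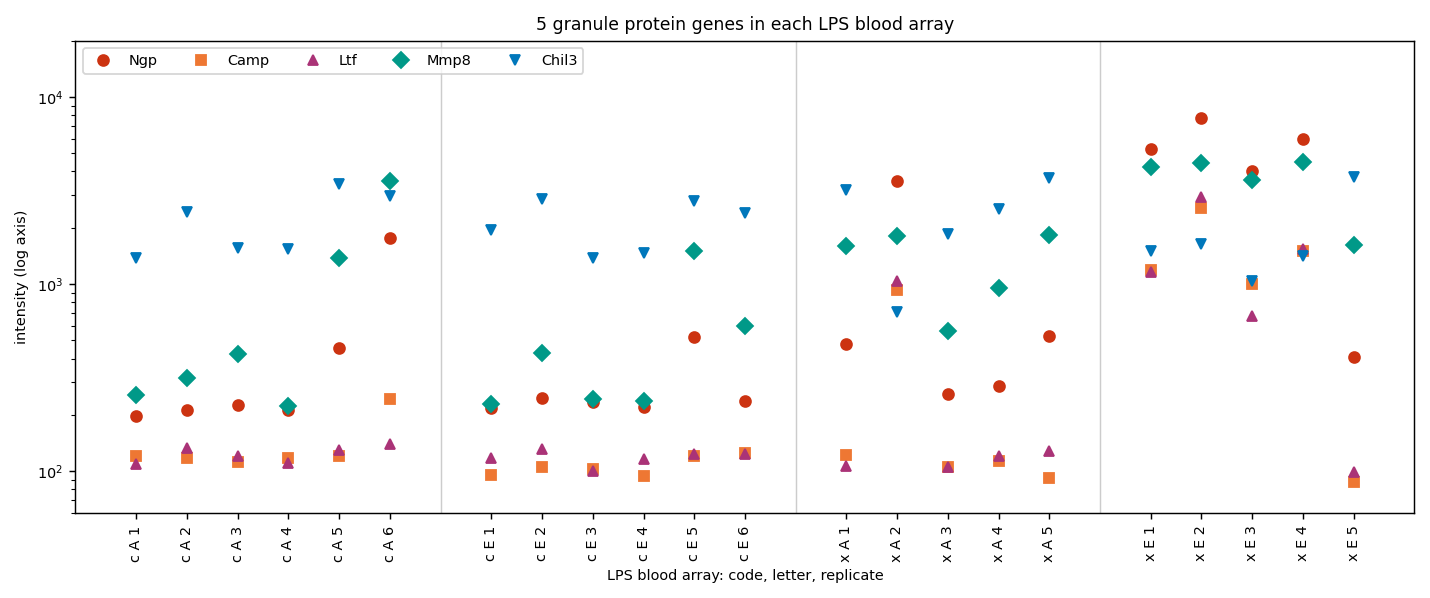
Deposited intensity (log axis) of Ngp, Camp, Ltf, Mmp8 and Chil3 in each of the 22 LPS blood arrays, ordered by code, letter and replicate. Replicate 2 of x letter A sits with the letter E arrays for Ngp, Camp, Ltf and Chil3, and replicate 5 of x letter E sits with the letter A arrays.

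Mmp8, Lcn2, Cd177 and Mmp9 rose in LPS blood with less of a gap between x arrays. Mmp8 read 560 to 1829 in x of letter A and 1621 to 4488 in x of letter E, against a c median of 369 (2.09 ± 0.42, adjusted p = 7.47e-04). Cd177 read 261 to 959 and 643 to 2465 against a c median of 161, and was above the c mean in 10 of 10 x arrays (2.07 ± 0.28, adjusted p = 1.15e-05). Lcn2 rose by 2.21 ± 0.53 (adjusted p = 0.00308). Among c arrays, letter A replicates 5 and 6 and letter E replicate 5 were the highest for Lcn2, at 2322, 4006 and 1936, where the other 9 read 190 to 529. The 2 Mmp9 probe sets agreed, at 1.03 ± 0.22 (adjusted p = 0.00125) and 0.93 ± 0.14 (adjusted p = 3.98e-05). Mpo and Elane are given above.

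Among letter E arrays of LPS blood the same 8 probe sets rose, where 14.8% of all were called, with Ngp at 3.63 ± 0.71, Lcn2 at 3.33 ± 0.74 and Camp at 2.82 ± 0.59. Among letter A arrays only Cd177 passed (1.21 ± 0.39, adjusted p = 0.0463), where 11.8% of all were called, and this call was lost in 16 of the 22 fits that left out 1 array. The difference between letters did not pass for any of the 11, where 0% of all probe sets were called, and 8 members and 1135 probe sets in all had an unadjusted p under 0.05. Its estimate was 2.80 ± 1.01 for Ngp and 2.42 ± 0.84 for Camp. Without replicate 2 of x letter A and replicate 5 of x letter E, a pair picked for these very values, Ngp differed by 0.13 in letter A and 4.43 in letter E, Camp by -0.24 and 3.58, and 0 and 8 members passed. Since the choice used the outcome, these numbers describe the remaining arrays and test nothing.

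The LPS blood differences were also unlike in separate fits of the title-number runs, and a difference between the runs was not itself tested. Ngp differed by 3.64 in the first run, where 8 members rose, and by 0.83 in the second, where 0 did. The second run held 2 of the 5 x arrays of letter E and 3 of the 5 of letter A. Codes also differed in a measure of RNA degradation, the log2 ratio of the 3' over the 5' beta-actin control probe set, which grows as RNA breaks down. It was 0.94 to 1.27 in x and 1.49 to 1.65 in c arrays. With this ratio in the fit 0 members passed in LPS blood, and Lcn2 (-0.06) and Mmp9 on 1416298_at (-0.32) changed sign. The ratio separates the codes without overlap in this set, so code and ratio cannot be told apart.

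In blood of the trauma-hemorrhage model, with 11 arrays of each code, 6 of the 11 probe sets rose and 1 fell, where 51.8% of all were called (20.5% higher and 31.3% lower). Ngp separated the codes without overlap. Its c arrays read 353, 349, 228, 345 and 890 in letter A and 1406, 1108, 899, 448, 470 and 678 in letter E. Its x arrays read 5457, 2804, 2055, 2576 and 5244 in letter A and 2704, 12855, 5163, 11079, 3626 and 4807 in letter E. The lowest x array, at 2055, was above the highest c array, at 1406, and the rise was 2.71 ± 0.27 (adjusted p = 1.81e-07, 6.56-fold).

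Ltf, which did not separate the codes in burn blood, rose here by 1.97 ± 0.42 (adjusted p = 6.12e-04). It read 76.5 to 119 in 9 c arrays and 357 and 352 in letter E replicates 1 and 2, against 199 to 5530 in x arrays, so x and c overlapped only through those 2 c arrays. Camp rose by 1.66 ± 0.38 (adjusted p = 0.00118), from a c median of 98.2 to an x median of 354, with the same 2 c arrays its highest at 327 and 402. Cd177 rose by 1.60 ± 0.32 (adjusted p = 3.76e-04), Lcn2 by 1.13 ± 0.27 (adjusted p = 0.00171) and Chil3 by 0.88 ± 0.21 (adjusted p = 0.00153). Each of these 6 was above the c mean of its letter in 11 of 11 x arrays. Mmp8 did not separate the codes, with 643 to 5381 in c arrays, 2249 to 8665 in x arrays and 0.38 ± 0.30 (adjusted p = 0.29).

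Mmp9 went the other way in trauma-hemorrhage blood on 1 of its 2 probe sets. On 1416298_at it had medians of 1244 in c and 692 in x and fell by 0.95 (SE 0.24, adjusted p = 0.00292), below the c mean of its letter in 10 of 11 x arrays after normalization, the exception being replicate 2 of letter E at 2534. On 1448291_at the medians were 1037 and 975 and the difference was -0.26 ± 0.16 (adjusted p = 0.177), so the 2 probe sets did not agree. The size on 1416298_at also depended on the scaling. Without normalization it was -0.59 (adjusted p = 0.0899) and with median scaling -0.58 (adjusted p = 0.0995), both short of the threshold. On 1448291_at the sign was not kept, with differences from -0.86 to 0.13 over the other settings.

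Replicates 2 and 4 of x letter E had the highest intensities of Ngp, Ltf, Camp, Lcn2, Mmp8 and Cd177 in trauma-hemorrhage blood, for example 5530 and 3405 for Ltf, where other x arrays read 199 to 1061. Without both, 6 members rose and 2 fell, with Ngp at 2.48, Ltf at 1.46 and Mmp9 at -1.16 and -0.38 on its 2 probe sets. The pair was picked after the data were seen and was also the highest in x for both Mmp9 probe sets. Leaving it out lowers x minus c for these genes by construction, so the fits without it describe the remaining arrays and test nothing. The share of all probe sets called in those fits is not given. By letter, 5 rose and 1 fell among A arrays (37.1% of all called) and 6 rose among E arrays (29.1% of all called), and 0 of 11 differed between letters (0% of all called, 1223 with an unadjusted p under 0.05, 0 of them members). Without the pair the letter E count was 2, 1 higher (Ngp at 2.16) and 1 lower (Mmp9 on 1416298_at at -1.26). The letter A count was 2 without c replicate 2 or x replicate 1 of letter A, and 3 without c replicates 1, 3 or 4. The first title-number run alone gave 2 calls and the second 7, with Ngp at 2.64 and 2.85. The beta-actin ratio was 0.97 to 1.65 in x and 1.79 to 2.28 in c arrays, again without overlap. With it in the fit 0 members passed and Ngp differed by 2.53 (adjusted p = 0.11).

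**Figure D3:**
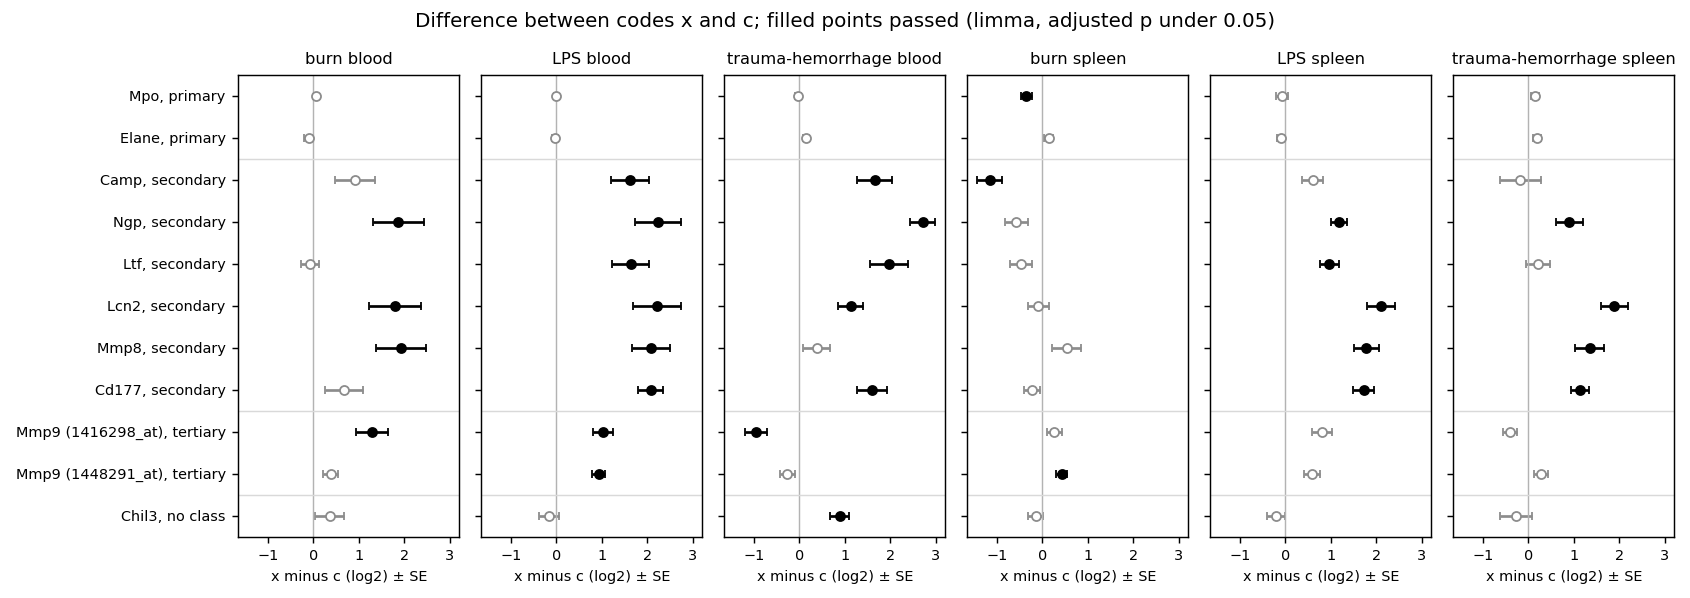
Difference between codes x and c (log2 intensity, point, with bars of 1 SE) of the 11 granule protein probe sets in each of the 6 array sets; filled points passed limma's adjusted p of 0.05. Secondary members lie to the right in most sets, Mpo and Elane lie near 0 in blood, Mpo lies at -0.35 in burn spleen, and Mmp9 changes side in trauma-hemorrhage blood, where 1416298_at lies at -0.95.

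The letter itself, which the labels tie to injury or sham, separated no member. E minus A averaged over both codes passed for 0 of 11 probe sets in each blood set, where 0%, 0% and 0.0189% of all were called in burn, LPS and trauma-hemorrhage, and 882, 828 and 1658 probe sets had an unadjusted p under 0.05. Of the members, 0, 4 and 3 had one. The estimates for Ngp were 0.92 ± 0.55, 1.07 ± 0.50 and 0.85 ± 0.27, with 95% intervals of -0.24 to 2.07, 0.03 to 2.12 and 0.28 to 1.42, all of which reach past 1 log2. For Mpo the estimates were 0.08, -0.03 and 0.01. The medians over the 11 probe sets were 0.40, 0.49 and 0.33, beside 0.00, -0.01 and 0.00 over all probe sets tested.

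The unequal change of the classes was also measured inside each array, as Ngp less Mpo and Ngp less Mmp9 on the log2 scale, with an exact two-sided permutation test of the codes within letters and adjustment over 18 tests. Ngp stood for the secondary class with its rise already known, so these p-values describe the arrays and add no independent support. Ngp less Mpo was higher in x by 1.81 in burn (exact p = 0.013, adjusted 0.0261), 2.23 in LPS (exact p = 0.00327, adjusted 0.0118) and 2.74 in trauma-hemorrhage blood (exact p = 8.59e-06, adjusted 5.15e-05, the smallest the permutations can give). Against Mmp9 on 1416298_at the gap was 0.58 in burn (exact adjusted p = 0.0818), 1.19 in LPS (exact adjusted p = 0.0261) and 3.66 in trauma-hemorrhage blood (exact adjusted p = 5.15e-05). Against 1448291_at it was 1.49 (exact adjusted p = 0.0227), 1.30 (exact adjusted p = 0.0261) and 2.97 (exact adjusted p = 5.15e-05), so in burn the probe sets differed on the call. The gap was widest in trauma-hemorrhage blood, where Ngp rose and Mmp9 on 1416298_at fell; whether it differed between models was not tested on this scale.

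Differences between models were tested directly, with the models' arrays in 1 fit. The beta-actin ratio separated the codes in LPS and trauma-hemorrhage blood, but overlapped in burn blood (1.39 to 1.65 in x and 0.97 to 1.74 in c). In comparisons with burn, the model and this ratio therefore cannot be told apart. In blood, x minus c in trauma-hemorrhage less that in burn passed for 4 of 11 members, where 42.3% of all probe sets were called: Ltf was 2.04 ± 0.51 higher, and Mmp9 on both probe sets (-2.23 ± 0.44 and -0.64 ± 0.24) and Mmp8 (-1.55 ± 0.63, adjusted p = 0.0455) were lower. The Mmp8 call was lost in 28 of the 42 fits that left out 1 array. Against LPS also 4 passed, where 46.3% of all were called, with Chil3 1.05 ± 0.32 higher and Mmp8 (-1.70 ± 0.54) and Mmp9 (-1.98 ± 0.34 and -1.19 ± 0.22) lower. LPS exceeded burn for Ltf (1.70 ± 0.50) and Cd177 (1.40 ± 0.51, adjusted p = 0.0448, lost in 27 of 42 such fits), where 23.1% of all were called. In each of these 3 comparisons a smaller share of the members than of all probe sets was called. Ngp, Lcn2, Camp, Mpo and Elane were among the members that did not pass in any of the 3.

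In spleen (the letter E alone) 5 of the 6 secondary members rose in LPS, 4 of 6 in trauma-hemorrhage and 0 of 6 in burn, where 1 fell. In LPS spleen (6 x and 6 c arrays) 5 of 11 probe sets rose and 0 fell, where 3.45% of all were called (2.59% higher and 0.859% lower). Lcn2 read 346, 957, 604, 279, 245 and 193 in c and 1811, 1315, 1458, 2598, 1408 and 1778 in x. Mmp8 read 586, 1528, 635, 389, 356 and 342 in c and 2328, 1701, 2208, 2379, 1702 and 1796 in x. All x arrays were above all c arrays for both, and the rises were 2.10 ± 0.31 (adjusted p = 4.06e-04) and 1.78 ± 0.27 (adjusted p = 5.52e-04).

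Cd177 (1.73 ± 0.23, adjusted p = 1.88e-04) and Ngp (1.18 ± 0.18, adjusted p = 5.81e-04) also separated the codes of LPS spleen without overlap. Ltf rose by 0.97 ± 0.21 (adjusted p = 0.0126) with overlap through 1 c array at 448. Camp had medians of 489 in c and 718 in x and did not pass (0.60 ± 0.23, adjusted p = 0.277). Mmp9 differed by 0.81 ± 0.22 (adjusted p = 0.0622) and 0.59 ± 0.17 (adjusted p = 0.079), and both probe sets passed without c replicate 2, the array highest for both (1.02 and 0.73). In separate fits of the title-number runs, they differed by 0.21 and 0.13 in the first and 1.41 and 1.05 in the second. Both passed in the second. Lcn2, Mmp8 and Cd177 passed in each run, at 1.28, 1.21 and 1.06 in the first and 2.91, 2.35 and 2.39 in the second, and Ngp at 1.08 and 1.28. Ltf did not pass in the first (0.69, adjusted p = 0.207). Mpo (-0.08 ± 0.13), Elane (-0.10 ± 0.09) and Chil3 (-0.21 ± 0.20) did not pass. The beta-actin ratio overlapped between the codes here, at 1.86 to 2.19 in x and 1.87 to 2.24 in c.

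In trauma-hemorrhage spleen (5 x and 6 c arrays) 4 of 11 rose and 0 fell, where 27.3% of all were called (10.9% higher and 16.5% lower). Lcn2 read 1755, 2998, 867, 1728 and 1913 in x and 543, 275, 273, 388, 959 and 481 in c, with 1 x array inside the c range, and rose by 1.89 ± 0.30 (adjusted p = 2.47e-04). Mmp8, which did not pass in blood of this model, rose by 1.35 ± 0.33 (adjusted p = 0.00594) from 174 to 1054 in c to 677 to 1328 in x. Cd177 rose by 1.13 ± 0.20 (adjusted p = 6.34e-04). Ngp rose by 0.90 ± 0.30 (adjusted p = 0.0349), a call lost without any 1 of c replicates 2 and 4 and x replicates 1, 3, 4 and 5 (adjusted p from 0.0512 to 0.0894). Camp (-0.17 ± 0.45), Ltf (0.21 ± 0.27) and Chil3 (-0.27 ± 0.35) did not pass, and replicate 2 of x was the lowest array for Camp at 76.6 and for Ltf at 139. Mmp9 had opposite signs on its 2 probe sets, -0.40 ± 0.16 and 0.28 ± 0.16, and neither passed.

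Burn spleen (6 x and 5 c arrays, labelled as leukocytes) had no secondary member that rose. Camp read 766, 1086, 642, 484 and 1231 in c and 237, 326, 591, 279, 672 and 271 in x and fell by 1.16 (SE 0.27, adjusted p = 0.00694), with 4 of 6 x arrays below every c array. Ngp had medians of 1511 and 856 (-0.57 ± 0.25, adjusted p = 0.124) and Ltf of 292 and 231 (-0.46 ± 0.24, adjusted p = 0.198). Mpo read 267, 258, 214, 189 and 218 in c and 171, 135, 189, 209, 201 and 177 in x and fell by 0.35 (SE 0.11, adjusted p = 0.0398), a call lost without c replicates 1, 2, 3 or 5 or x replicates 1, 2, 3 or 6 (adjusted p from 0.054 to 0.109). Mmp9 on 1448291_at rose by 0.42 ± 0.13 (adjusted p = 0.0278), lost without c replicates 3 or 4 or x replicate 3, and 1416298_at differed by 0.27 ± 0.17. In all, 1 probe set rose and 2 fell of 11, where 18% of all were called (9.93% higher and 8.03% lower), and only Camp was left without c replicate 3.

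Other cell markers moved with the code in several sets. In burn spleen, macrophage and monocyte markers fell in 6 of 7 tested, B cell markers in 4 of 5, NK cell markers in 3 of 4 and precursor and progenitor markers in 2 of 3 (Mki67 by 0.81 and Top2a by 0.33), and T cell markers rose in 2 of 5. The mean log2 level of 4 erythroid markers was 7.17 to 7.52 in c and 6.23 to 6.48 in x. In trauma-hemorrhage spleen, B cell markers fell in 4 of 5 and T cell markers in 3 of 5, with a mean log2 level of the B cell markers of 10.24 to 10.51 in c and 9.58 to 9.91 in x. NK cell markers there fell in 2 of 4 and rose in 1, and macrophage and monocyte markers fell in 2 of 7 and rose in 1. In LPS spleen 1 of 4 B cell markers fell, 1 of 4 NK cell markers rose and 1 of 7 macrophage and monocyte markers fell. In burn blood, B cell markers fell in 4 of 4, NK cell markers in 4 of 4 and platelet markers in 2 of 5. In LPS blood platelet markers rose in 4 of 5 and erythroid markers in 2 of 4, and 1 of 4 B cell markers rose and 1 fell. In trauma-hemorrhage blood 2 rose and 1 fell among T cell (5), NK cell (4) and macrophage and monocyte markers (7). There 2 of 5 platelet markers and 2 of 4 eosinophil, basophil and mast cell markers fell. Of all probe sets tested, 18.2%, 26.4% and 51.8% were called in burn, LPS and trauma-hemorrhage blood, and 18%, 3.45% and 27.3% in spleen. The part of these other cells in the differences of the granule genes was not tested.

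**Figure D4:**
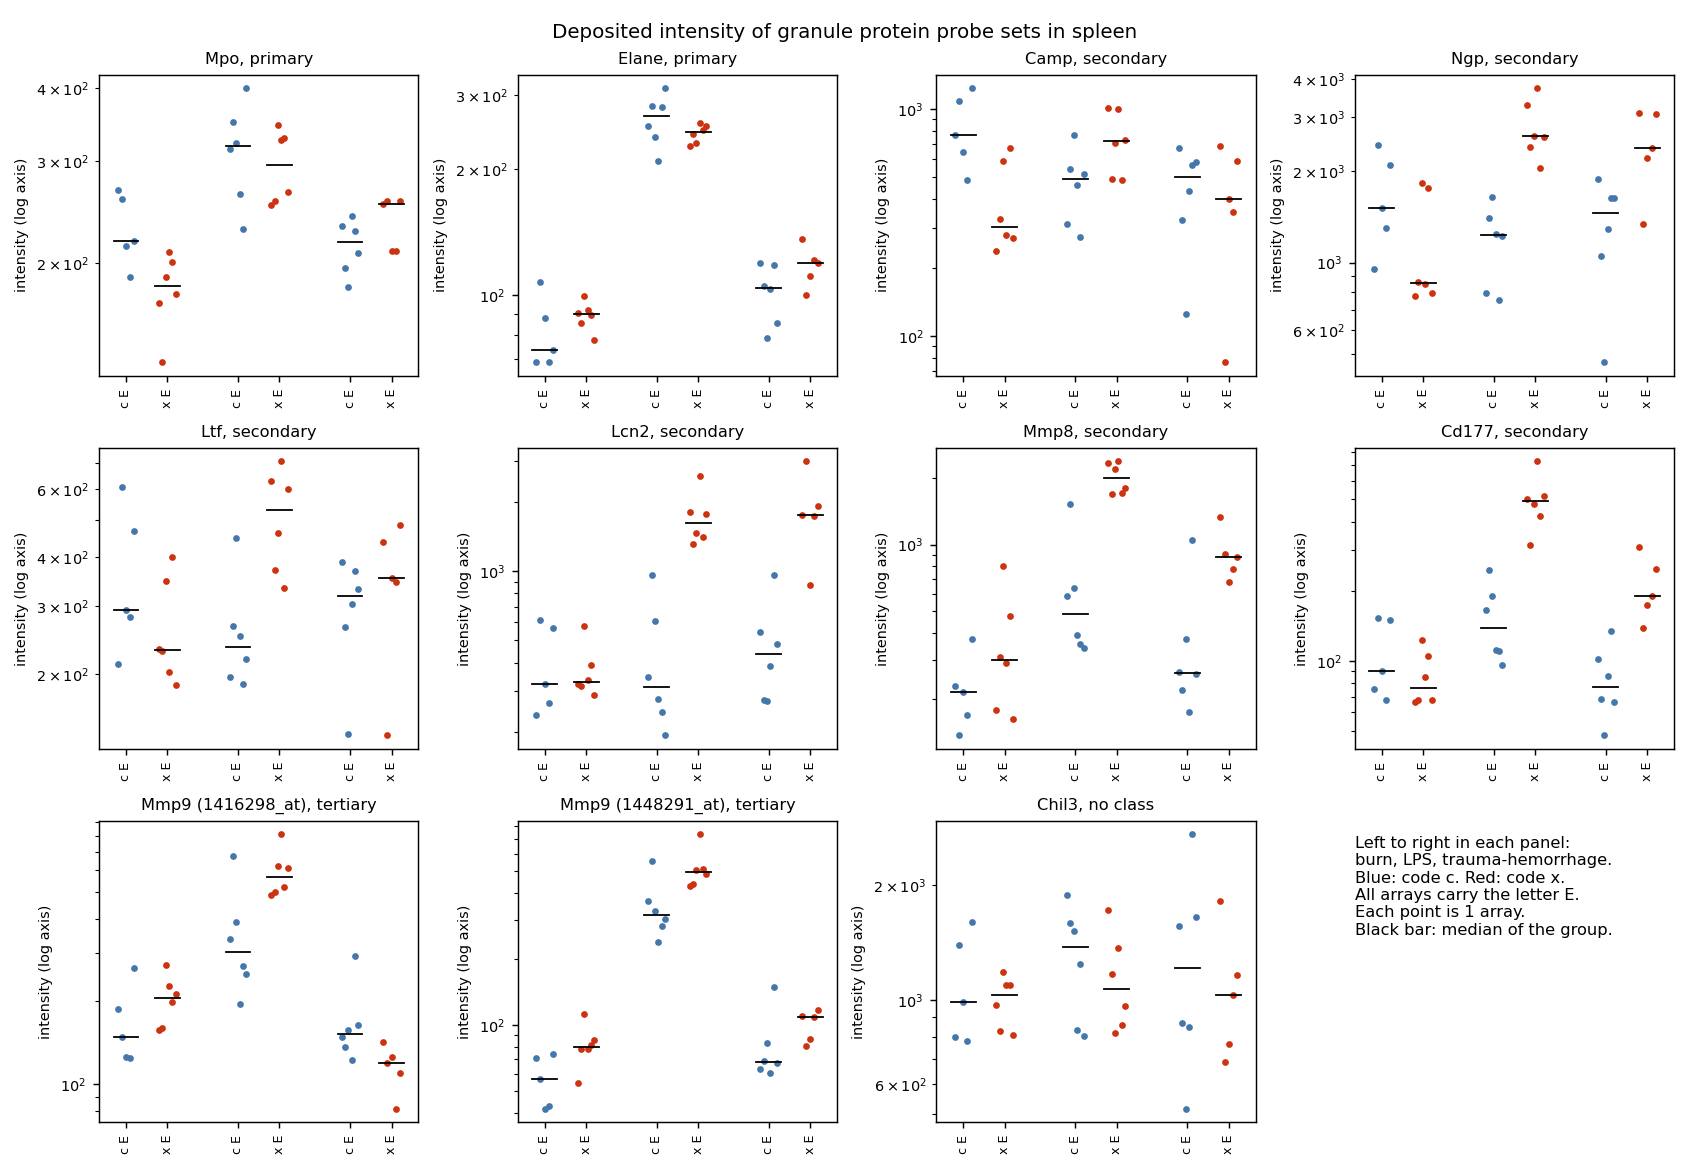
Deposited intensity (log axis) of the 11 granule protein probe sets in every spleen array, with burn, LPS and trauma-hemorrhage from left to right in each panel; blue is code c, red is code x and bars are group medians. Lcn2 and Cd177 are raised in x in LPS and trauma-hemorrhage but not in burn, where Camp is lower in x.

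Tests between spleen sets placed burn below LPS and trauma-hemorrhage for several secondary members, while 0 of 6 secondary members passed between trauma-hemorrhage and LPS. Mmp8 did not pass in any of these tests. The labels call burn spleen samples leukocytes and the others spleen, and LPS spleen titles alone carry a version mark. Model and sample type therefore cannot be told apart in the tests with burn. LPS exceeded burn for Lcn2 (2.18 ± 0.42), Cd177 (1.95 ± 0.32), Camp (1.76 ± 0.39), Ngp (1.75 ± 0.33) and Ltf (1.43 ± 0.35), 5 of 11 where 9.2% of all were called. Trauma-hemorrhage exceeded burn for Lcn2 (1.98 ± 0.42), Ngp (1.47 ± 0.43), Cd177 (1.35 ± 0.29) and Mpo (0.50 ± 0.15), where 23.5% of all were called. Between trauma-hemorrhage and LPS 1 member passed, Mmp9 on 1416298_at at -1.21 ± 0.30, where 10.7% of all were called. Inside the arrays, Ngp less Mpo was higher in x by 1.26 in LPS spleen (exact adjusted p = 0.00974) and differed by 0.75 in trauma-hemorrhage (exact adjusted p = 0.0818) and -0.22 in burn spleen (exact adjusted p = 0.5). Ngp less Mmp9 on 1416298_at differed by -0.84 in burn (exact adjusted p = 0.0519), 0.37 in LPS (exact adjusted p = 0.243) and 1.30 in trauma-hemorrhage spleen (exact adjusted p = 0.0261). On 1448291_at these were -0.99 (exact adjusted p = 0.0261), 0.59 (exact adjusted p = 0.0818) and 0.62 (exact adjusted p = 0.158).

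Between tissues (letter E arrays alone) x minus c in spleen was lower than in blood for 3 of 11 members in LPS, where 7.03% of all probe sets were called: Ngp (-2.45 ± 0.65), Camp (-2.22 ± 0.64) and Mmp9 on 1448291_at (-0.86 ± 0.26). In trauma-hemorrhage Ngp alone passed (-1.72 ± 0.50), where 24.1% of all were called, and in burn 0 of 11 passed, where 3.42% were called, 2937 probe sets had an unadjusted p under 0.05 and 1 of them was a member. These counts rest on few blood arrays: the LPS count ran from 1 to 7 and the trauma-hemorrhage count from 1 to 4 when 1 array was left out, and the burn count was 6 without c replicates 4 and 5. Lcn2 and Cd177 did not pass in any of the 3.

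Genes other than the members, listed by granule class with results of these data known, did not all follow the members of their class. Ms4a3 was listed with the primary class and is not itself a known granule protein. Of all probe sets tested, 7.71%, 13.4% and 20.5% were higher in x in burn, LPS and trauma-hemorrhage blood, and 10.5%, 13% and 31.3% lower. With lists this short, the mixed calls in trauma-hemorrhage blood were not tested against those shares. Of the 5 other primary genes listed, 4 were on the array. In trauma-hemorrhage blood 2 of 3 tested rose and 1 fell: Ctsg, cathepsin G, fell by 0.36 (SE 0.07, adjusted p = 2.83e-04), Gusb, the lysosomal beta-glucuronidase, rose by 0.52 ± 0.12 (adjusted p = 9.43e-04) and Ms4a3 rose by 0.13 ± 0.05 (adjusted p = 0.023). In burn and LPS blood 0 rose, and 0 and 1 of 4 fell. Of 6 other secondary genes on the array, 2 of 6 tested rose and 3 fell in trauma-hemorrhage blood. Hp, haptoglobin, rose by 1.01 ± 0.24 (adjusted p = 0.00137), while Ptx3, a pentraxin, fell by 0.35 (SE 0.08, adjusted p = 0.00178) and Cybb, the heavy chain of the phagocyte oxidase, by 0.21 (SE 0.06, adjusted p = 0.00734). In LPS blood 5 of 5 tested rose, among them Hp by 1.19 ± 0.28 and Cybb by 0.37 ± 0.11, and in burn blood 1 of 5, Hp by 1.45 ± 0.36.

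Of the other tertiary genes, 2 were on the array, and Slc11a1, a metal ion transporter of phagocytes, rose in burn (0.97 ± 0.18), LPS (0.68 ± 0.17) and trauma-hemorrhage blood (0.68 ± 0.18), unlike Mmp9 in the last. The other gene, Adam8, rose in burn blood but did not pass in LPS or trauma-hemorrhage blood. Among regulators of the programme (3 tested in each blood set), Spi1, which encodes PU.1, rose by 0.70 ± 0.17 in trauma-hemorrhage (adjusted p = 0.00185) and 0.57 ± 0.14 in LPS blood. It was not called in burn blood. Csf3r, the receptor of granulocyte colony-stimulating factor, fell in trauma-hemorrhage blood (-0.54 ± 0.20, adjusted p = 0.0251), while it rose in LPS (0.75 ± 0.13) and burn blood (1.26 ± 0.21). In spleen, 2 of 5 other secondary genes tested rose in LPS, 3 rose and 1 fell of 5 in trauma-hemorrhage, and 0 of 5 passed in burn. Of all probe sets tested, 3.45%, 27.3% and 18% were called there in the same order.

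Markers of mature neutrophils other than the members moved with most of these results. Among them Itgam, an integrin chain, and Fpr2, a formyl peptide receptor, can also be stored in granule membranes. The list shares Csf3r with the regulators above. Its genes rose in 5 of 7 tested in burn blood, 5 of 6 in LPS blood and 5 of 7, with 1 lower, in trauma-hemorrhage blood, and in 0 of 5, 3 of 5 and 3 of 6 in burn, LPS and trauma-hemorrhage spleen. Of all probe sets tested, 7.71%, 13.4% and 20.5% rose in these blood sets and 9.93%, 2.59% and 10.9% in these spleen sets. The calprotectin subunits S100a8 and S100a9 rose by 1.43 and 1.55 in burn, by 0.48 and 0.83 in LPS and by 0.39 and 0.45 in trauma-hemorrhage blood, where Ngp rose by 1.87, 2.23 and 2.71. The mean log2 level of the 7 markers was 8.65 to 11.07 in c and 9.91 to 10.58 in x arrays of burn blood, 9.12 to 10.62 and 9.76 to 10.87 in LPS blood, and 9.36 to 10.73 and 10.35 to 11.44 in trauma-hemorrhage blood. Of the 2 x arrays of LPS blood that crossed over for Camp and Ltf, replicate 2 of letter A, at 10.11, lay within its group's 9.76 to 10.36, and replicate 5 of letter E, at 10.19, lay below the 10.64 to 10.87 of its group. In trauma-hemorrhage blood, replicates 2 and 4 of x letter E were the highest, at 11.44 and 11.36. Precursor and progenitor markers rose in 0 of 4 in each blood set and fell in 2 of 4 in LPS blood, where 13% of all probe sets were lower. Whether the share of neutrophils in a sample had a part in these differences was not tested.

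The genes whose 6 differences between codes lay closest to those of a member were named for one member of each class, out of 11092 probe sets tested in all 6 sets. For Mpo they were Afg3l2, Krt7 and Ppp2r5d, at root-mean-square distances of 0.03, 0.04 and 0.04 log2, which a gene with small differences in every set reaches easily. For Ngp they were Marcksl1 (0.67), Samsn1 (0.90) and Slc15a3 (0.92), all much farther from it; Marcksl1 differed by 0.58 in burn blood, where Ngp differed by 1.87. For Mmp9 on 1416298_at they were Pygl (0.39), Dhrs7 (0.40) and Nudt4 (0.48), each with a positive difference in burn and LPS blood and a negative one in trauma-hemorrhage blood.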

How the data were processed

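RNA from 64 blood leukocyte and 34 spleen samples was measured on 1-colour Affymetrix arrays, 1 array a sample. The authors deposited 1 intensity per probe set and array, on a linear scale. The software and scaling behind these intensities are not given in the sources used here; within each of the 6 array sets the deposited intensities share a lowest value. Gene names came from the platform's annotation, in which 20380 probe sets had 1 symbol, 691 had several (left unnamed) and 1555 had none.

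Intensities were taken as log2(intensity + 16), quantile normalized within each tissue and fitted per array set in limma 3.58.1 (R 4.3.3) with 1 term per group, an intensity trend and Benjamini-Hochberg adjustment at 0.05 over 15838 probe sets. The 64 control probe sets were dropped, as were the dimmest, below the 30th percentile of mean log2 intensity. The log2(intensity + 16) scale understates the differences of dim probe sets. Models and tissues were compared in fits holding the arrays of both. Deposited intensities, not normalized ones, are printed. The fit was tested on simulated data, where x minus c changes of 1 log2 planted in 200 of the 15838 probe sets were recovered in 97% (trauma-hemorrhage spleen) to 100% (LPS blood) of cases, and differences of 1 log2 between letters in 86.5% (trauma-hemorrhage blood) to 92.5% (burn and LPS blood). The changed probe sets were drawn at random from all those tested, with independent noise of each probe set's own spread. These shares describe an average over such probe sets and do not carry over to the members, several of which scattered widely within groups. False calls made up 2.26% (differences between letters in trauma-hemorrhage blood) to 7.01% (burn spleen) of all calls. The precision is limited by the number of arrays, 4 to 6 a group.

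The members, lists, motifs and tests were chosen with earlier results of these data known. All members are named; of the other granule and regulator lists, those past the threshold in trauma-hemorrhage blood with the 3 smallest p-values per list, and of each class's representative (Mpo, Ngp, Mmp9) the 3 most alike probe sets with a gene name. Slc11a1, Hp, Csf3r, Spi1 and Cybb are then followed through the other sets; S100a8, S100a9, Mki67 and Top2a were singled out after their values were seen. Alternatives covered the pseudocount, normalization, filter, array weights, robust variances, the run and beta-actin ratio, pooled fits and leaving out arrays. The pairs of arrays left out together were chosen after seeing the data.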

Additional observations from a re-analysis of the deposited data

Results flagged for a closer look

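Single arrays were compared with the rest of their group (4 to 6 arrays) by the gap to the nearest other array over the range, against Dixon's 95% critical value. Of 198 groups checked over the 11 probe sets, 20 held such an array, where chance gives about 1 in 20. Of these, 10 were values of the same 2 x arrays in LPS blood. Replicate 5 of x letter E lay below its group for Ngp (409), Lcn2 (1416), Mmp8 (1621), Cd177 (643), Camp (87.7) and Mmp9 on 1448291_at (1352), and above it for Chil3 (3719). Replicate 2 of x letter A lay above its group for Ngp (3568), Camp (928) and Ltf (1045). Among c arrays of LPS blood, Ngp was high in replicate 6 of letter A (1759) and replicate 5 of letter E (523), and Camp in replicate 6 of letter A (242).

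In trauma-hemorrhage blood, c replicate 2 of letter E was low for Lcn2 (601), Mmp8 (643) and Mmp9 on 1416298_at (554), while it was its group's highest for Camp (402). Replicate 5 of x letter A was high for Mpo (200). In spleen, Lcn2 was high in burn x replicate 3 (577), Ltf was low in trauma-hemorrhage c replicate 3 (140), and Mmp9 on 1416298_at was high in trauma-hemorrhage c replicate 5 (293).

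The difference between codes itself differed between models or tissues in 24 tests, all past limma's adjusted p of 0.05. In blood, trauma-hemorrhage less burn was 2.04 for Ltf, -1.55 for Mmp8, and -2.23 and -0.64 for the 2 Mmp9 probe sets. Trauma-hemorrhage less LPS was -1.70 for Mmp8, -1.98 and -1.19 for Mmp9 and 1.05 for Chil3, and LPS less burn was 1.70 for Ltf and 1.40 for Cd177. In spleen, trauma-hemorrhage less burn was 0.50 for Mpo, 1.47 for Ngp, 1.98 for Lcn2 and 1.35 for Cd177. LPS less burn was 1.76 for Camp, 1.75 for Ngp, 1.43 for Ltf, 2.18 for Lcn2 and 1.95 for Cd177, and trauma-hemorrhage less LPS was -1.21 for Mmp9 on 1416298_at. Spleen less blood was -2.22 for Camp, -2.45 for Ngp and -0.86 for Mmp9 on 1448291_at in LPS, and -1.72 for Ngp in trauma-hemorrhage.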

How the results depend on the processing

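Counts here are of the 11 granule protein probe sets past the threshold. No paired analysis was possible because the labels give no replicate numbers, and replicate numbers here only name arrays. The title-number run as a block moved no count of members called in any comparison by over 1.5 times (trauma-hemorrhage blood went from 7 to 8 with Elane). In burn blood the count was 8 with array weights and 8 without the 2 c arrays that stood apart, 2 in run 1 and 0 in run 2. For its letter A it was 3 with no filter, 8 with array weights and 8 without that pair, and for letter E 3 and 6 under the last 2. In LPS blood it was 0 with the beta-actin ratio as a covariate and 0 in run 2. For its letter A it was 0 with a pseudocount of 64, no normalization, median scaling, no filter, robust variances, all 12 blood groups in 1 fit or without the 2 crossed-over x arrays. The difference between letters gave 6 with array weights and 5 without those arrays, and E minus A gave 4 and 4. In trauma-hemorrhage blood it was 0 with the beta-actin ratio and 2 in run 1, 3 for letter A with no filter, and 2 for letter E without x replicates 2 and 4. Burn spleen gave 1 with no filter.

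Between models in blood, trauma-hemorrhage less burn gave 2 with no normalization and 2 with median scaling, and LPS less burn gave 1 with a pseudocount of 1, no normalization or no filter. Spleen less blood gave 6 in burn without the c pair, 0 in LPS with no filter and 7 without the crossed-over arrays, and in trauma-hemorrhage 2 with no normalization and 0 without the x pair. Signs changed for some results, among them Lcn2 (-0.057) and Mmp9 on 1416298_at (-0.32) in LPS blood with the beta-actin ratio. Without the c pair, Cd177 in burn letter E went to 0.95 from -0.20. Other differences that had not passed also crossed 0 under some settings. In trauma-hemorrhage blood Mmp8 went from 0.38 to as low as -0.54, and Mmp9 on 1448291_at from -0.26 to as high as 0.13. Except where the fit itself has fewer samples or other probe sets, the cause was not tested.

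Leaving out 1 array at a time gave counts of 3 to 6 in burn blood (letter A 1 to 8, letter E 0 to 1), 8 to 8 in LPS blood (letter A 0 to 2, letter E 8 to 8, difference between letters 0 to 4) and 7 to 8 in trauma-hemorrhage blood (letter A 2 to 7, letter E 6 to 7). The spleen counts were 1 to 3 in burn, 5 to 7 in LPS and 3 to 5 in trauma-hemorrhage. Between models, counts were 3 to 4 (trauma-hemorrhage less burn), 4 to 5 (less LPS) and 1 to 3 (LPS less burn) in blood, and 4 to 5, 1 to 1 and 5 to 6 in spleen. Spleen less blood ran from 0 to 1 in burn, 1 to 7 in LPS and 1 to 4 in trauma-hemorrhage. Mpo lies near the array median in blood and Elane somewhat above it, and neither has detection calls, which limits what can be seen of them.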
